A study of Homo sapiens with 8 samples.

Results

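The patterning homeobox genes outside the HOX clusters are 41 named protein-coding genes from the DLX, IRX, LHX, EMX, OTX, MSX, EN, NKX and PAX families, with SIX3, SIX6, POU3F2 and POU4F1. They were chosen by name from a list, with earlier results of these data known. All 41 were found among the 19609 protein-coding genes of GENCODE version 44 on GRCh38. Chromatin accessibility was read by ATAC-seq, in which the Tn5 transposase inserts adapters into open DNA, in 8 libraries of HEK293T, an embryonic kidney cell line that expresses the SV40 large T antigen. The 4 E92K libraries came from cells with an H2A(E92K) lentivector, and the 4 H2A libraries from cells with an H2A lentivector, so both groups carry an introduced histone H2A. The E92K change puts a positively charged lysine in the place of a glutamate of the nucleosome's acidic patch. The comparison asks where accessible DNA differs between these cells. All libraries are from 1 cell line, no further treatment is labelled, and the labels call the cells transfected in one place and give a lentivector as genotype in another. Whether replicates were separate cultures is not stated, so the spread that p-values are measured against is that of these samples and may be technical.

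Homeobox genes encode transcription factors that bind DNA through a homeodomain, and in the embryo each is switched on in a few territories of brain, face, limb, heart, gut, kidney or gonad. Several families occur as closely linked copies, such as the convergently transcribed DLX pairs and the Iroquois (IRX) clusters, whose copies share distant regulatory DNA. Their promoters often lie in long CpG islands, which in cells that do not use the gene are commonly held by Polycomb complexes. PAX9 is listed with its family although it has a paired domain and no homeodomain.

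Each library had its own list of peaks, the intervals where cut DNA was enriched. The E92K lists held 58174, 61850, 57431 and 55527 peaks in replicates 1 to 4 and the H2A lists 59759, 57439, 58937 and 62044. Relative depth, taken as the lowest background that the deposited folds and p-values imply, was 2.41, 2.68, 2.23 and 2.26 fragments in the E92K libraries and 2.71, 2.52, 2.53 and 2.93 in the H2A libraries. It was lower in 3 of the 4 E92K libraries than in any H2A library, and a missing peak shows only that none was called at that depth. Of 11 genes that mark HEK293T, 10 had a promoter peak in every library, PAX8 being the exception, against 1 of 7 hematopoietic, 1 of 6 hepatocyte and 1 of 5 endothelial markers. Of 6 neural progenitor markers 3 had one, and of 5 muscle markers 1.

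A promoter was taken as 1000 bp on either side of a transcription start site (TSS), and a gene was called open in a library when a peak touched it. Of the 41 genes, 33 (80.5%) were open in all 8 libraries, 1 in some and 7 in none. Of the 19609 genes in all, 68.0% were open in all 8, 6.34% in some and 25.6% in none. The 105 other homeobox genes were open in all 8 libraries in 72 cases (68.6%), the 39 HOX genes in 26 (66.7%), and 36 genes of patterning signals in 24 (66.7%). All 6 DLX genes, both MSX and both EN genes, the 4 PAX genes and both POU genes were open throughout, as were 4 of 6 IRX, 6 of 8 LHX, 3 of 4 EMX and OTX and 4 of 5 NKX genes. No library had a promoter peak at IRX1, IRX2, LHX5, OTX2, NKX6-2, SIX3 or SIX6. LHX3 was the gene open in some libraries.

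**Figure D1:**
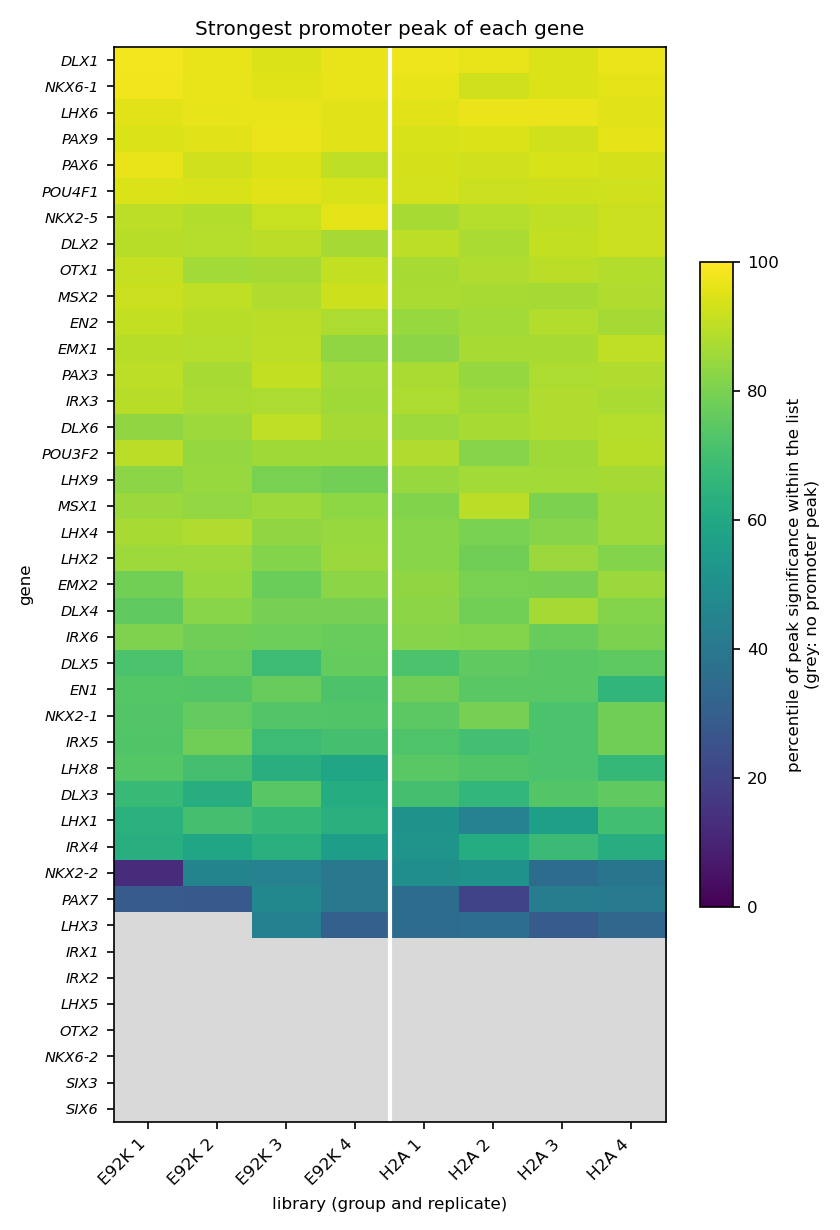
Each row is a gene and each column a library, E92K replicates left of the white line and H2A replicates right of it. Colour gives the percentile of the strongest promoter peak by −log10 p within that library's own list, and grey means that no peak touched the promoter; 33 rows are coloured in every library, LHX3 in 6 and 7 rows in none.

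The peaks over these promoters were wide. The strongest promoter peak of the 33 genes open in all 8 libraries had a median width of 1459 bp (interquartile range 1107 to 1796), against 1104 bp (888 to 1366) for all protein-coding genes open in all 8. A median width over 1000 bp was found at 27 of the 33 genes (81.8%), against 62.1% of all such genes. Wide peaks were not particular to these genes. The median width was 1327 bp at HOX genes open in all 8, 1326 bp at patterning signal genes and 1546 bp at HEK293T markers. At the other homeobox genes it was 1124 bp. Their rank was not higher. The median percentile of their peaks by significance within each list was 84.6 against 88.4, and the median fold enrichment over local background was 6.03 against 8.43. Their summits lay farther from the start, at a median of 164 bp against 92 bp. The HOX genes had a median percentile of 76.6, a fold of 5.08 and a summit distance of 266 bp. The patterning signal genes had 73.9, 5.17 and 212 bp, and the other homeobox genes 80.9, 6.43 and 132 bp. An annotated TSS of the gene, not always the one nearest the summit, was under a promoter peak in all 8 libraries at 29 of the 33 genes (87.9%), against 91.4%.

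The promoters without a peak were not poor in CpG, the dinucleotide that marks CpG islands. Within 1000 bp of the canonical TSS the 7 genes without a peak had a median of 143 CpG, with a range of 90 to 288, and the 33 open genes a median of 136. Over all protein-coding genes the median was 32 at the 5025 promoters without a peak and 114 at the 13341 promoters open in all 8 libraries. At least 100 CpG were present at 6 of the 7 (85.7%) and at 28 of the 33 (84.8%), against 11.8% and 62.9% of all genes of the same status. NKX6-2 had 288 CpG, IRX2 250, IRX1 240, LHX5 143, SIX3 121, SIX6 115 and OTX2 90. Read the other way, 28 of the 35 patterning genes with at least 100 CpG (80.0%) were open in all 8 libraries and 6 (17.1%) in none, against 89.4% and 6.3% of the 9382 protein-coding genes with as many. These counts describe the reference sequence, and DNA methylation and histone marks were not analysed here.

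**Figure D2:**
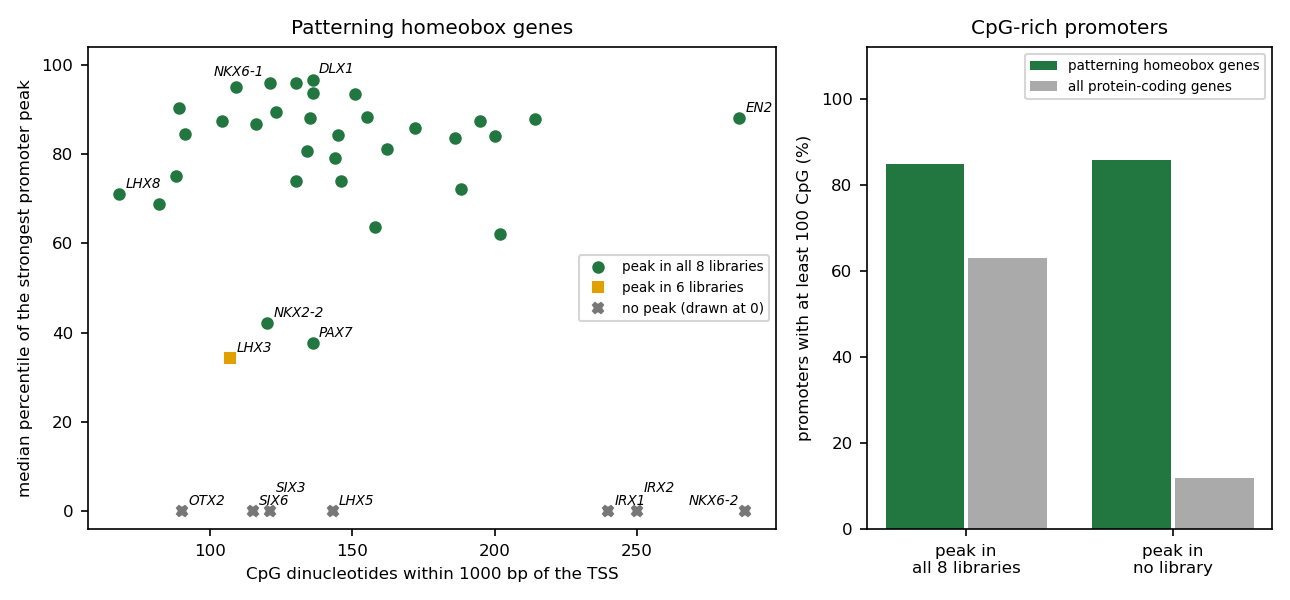
Left, the number of CpG within 1000 bp of the canonical TSS (horizontal) against the median percentile of the strongest promoter peak over libraries (vertical) for each of the 41 genes, with genes that had no peak drawn at 0; the plotted peaks of LHX6 and LHX3 are at other starts than the canonical one. Right, the share of promoters with at least 100 CpG, which is 84.8% and 85.7% in the patterning genes with and without peaks but 62.9% and 11.8% over all protein-coding genes.

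Promoter sequences were read for the same genes. Of the 41 genes, 28 had a sequence in the RefSeq table of GRCh38.p14, running from 250 bases before to 50 after the start. Not in it were SIX3, EMX1, DLX4, NKX6-2, IRX5, IRX6, DLX5, LHX1, LHX5, DLX3, IRX3, NKX2-5 and EN1. Capitals mark CpG. The first set is 2 of the highest ranked open promoters, DLX1 (chr2:172085257-172085556, plus strand, 23 CpG) and NKX6-1 (chr4:84499243-84499542, minus strand, 24 CpG).
DLX1: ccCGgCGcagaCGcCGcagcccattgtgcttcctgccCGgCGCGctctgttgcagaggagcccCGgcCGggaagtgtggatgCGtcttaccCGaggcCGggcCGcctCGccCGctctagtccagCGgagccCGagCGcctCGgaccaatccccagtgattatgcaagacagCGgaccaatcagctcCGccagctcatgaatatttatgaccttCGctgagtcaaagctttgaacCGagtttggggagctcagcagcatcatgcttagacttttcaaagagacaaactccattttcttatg
NKX6-1: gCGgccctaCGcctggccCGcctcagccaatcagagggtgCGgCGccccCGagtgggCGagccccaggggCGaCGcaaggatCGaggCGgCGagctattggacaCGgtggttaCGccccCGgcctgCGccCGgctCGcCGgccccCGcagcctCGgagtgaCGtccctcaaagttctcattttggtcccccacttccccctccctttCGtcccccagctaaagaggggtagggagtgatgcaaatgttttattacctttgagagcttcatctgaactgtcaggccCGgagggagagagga
The second set is 4 promoters that had no peak in any library. IRX1 (chr5:3595582-3595881, plus strand) holds 38 CpG and IRX2 (chr5:2751628-2751927, minus strand) 34, more than either open promoter above. SIX6 (chr14:60508896-60509195, plus strand) holds 23 and OTX2 (chr14:56810430-56810729, minus strand) 9. The 23 genes open in all 8 libraries that had a sequence held 13 to 50 CpG, with a median of 24.
IRX1: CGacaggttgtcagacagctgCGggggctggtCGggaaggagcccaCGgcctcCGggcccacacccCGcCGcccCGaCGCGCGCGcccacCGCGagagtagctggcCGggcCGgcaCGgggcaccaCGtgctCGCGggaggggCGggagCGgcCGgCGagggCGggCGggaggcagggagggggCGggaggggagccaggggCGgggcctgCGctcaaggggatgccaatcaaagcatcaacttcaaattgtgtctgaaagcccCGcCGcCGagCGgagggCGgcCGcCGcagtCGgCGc
IRX2: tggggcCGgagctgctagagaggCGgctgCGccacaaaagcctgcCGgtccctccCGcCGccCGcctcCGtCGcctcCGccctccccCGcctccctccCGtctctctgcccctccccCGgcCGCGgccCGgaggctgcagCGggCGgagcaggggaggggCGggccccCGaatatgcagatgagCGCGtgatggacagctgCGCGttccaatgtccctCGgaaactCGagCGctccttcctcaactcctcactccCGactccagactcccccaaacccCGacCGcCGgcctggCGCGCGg
SIX6: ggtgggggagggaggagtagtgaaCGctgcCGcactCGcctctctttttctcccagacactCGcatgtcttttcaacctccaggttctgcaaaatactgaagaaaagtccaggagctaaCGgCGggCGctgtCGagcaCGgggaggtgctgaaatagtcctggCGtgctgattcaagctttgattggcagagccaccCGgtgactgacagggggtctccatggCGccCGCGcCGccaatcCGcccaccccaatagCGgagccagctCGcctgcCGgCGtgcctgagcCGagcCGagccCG
OTX2: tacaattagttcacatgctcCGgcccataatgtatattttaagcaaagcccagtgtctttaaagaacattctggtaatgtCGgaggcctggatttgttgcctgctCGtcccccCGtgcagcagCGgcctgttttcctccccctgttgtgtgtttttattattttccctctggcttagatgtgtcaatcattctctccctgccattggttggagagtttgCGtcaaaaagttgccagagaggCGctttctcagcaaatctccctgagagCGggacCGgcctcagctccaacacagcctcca
A gene open at one start can have its RefSeq sequence at another. Counting peaks on the 300 bases themselves, 16 of the 28 sequences were under a peak in all 8 libraries, with a median of 30 CpG, and 10 in none, with a median of 23.5. The 10 were the 4 printed above, and LHX3, LHX8, LHX9, IRX4, PAX6 and PAX9, which had their peaks at other starts or away from the start. Over all 15278 sequences of the table with a gene in GENCODE, the median was 27 CpG at the 9510 under a peak in all 8 libraries and 5 at the 4781 under none.

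Short consensus letters were searched on both strands of the same 300 bases, where different motifs may overlap. CCAAT, the letters of the CCAAT box, occurred in 18 of the 28 (64.3%) against 36.5% of all promoters, and in all 4 of the printed promoters whose genes had no promoter peak. GGGCGG, the GC box, occurred in 16 (57.1%) against 59.2%. TATAAA, the TATA box, occurred in none of the 28 and in 9.6% of all. TAATTA, a core that many homeodomains bind, occurred at MSX2 and EMX2 (7.1%, against 3.3%), and CACGTG, the E-box, at DLX2 and IRX1 (7.1%, against 8.9%). A match is a string of letters and not a measured binding site.

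The 6 DLX genes, homologues of the fly Distal-less gene that act in forebrain interneurons, jaw and limb, form 3 pairs. In each pair the genes lie on opposite strands and point towards each other. The starts of DLX1 and DLX2 on chromosome 2 are 17.4 kb apart, those of DLX3 and DLX4 on chromosome 17 26.0 kb, and those of DLX5 and DLX6 on chromosome 7 19.3 kb. Peaks occurred at both promoters of every pair in all 8 libraries.

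DLX1, needed with DLX2 for interneurons of the forebrain, had the highest ranked promoter peak of all 41 genes. Its percentile was 98.3, 96.5, 94.8 and 96.7 in the E92K libraries and 97.4, 96.7, 94.7 and 97.0 in the H2A libraries. The groups overlapped. Its width was 2403, 2425, 1604 and 1602 bp in the E92K libraries and 1602, 1600, 1797 and 2416 bp in the H2A libraries. The narrower values came with a separate second peak downstream in E92K replicate 4 and H2A replicates 1 and 3, and with none in E92K replicate 3 and H2A replicate 2. DLX2 had a lower percentile of 89.3, 89.0, 89.6 and 86.5 in the E92K libraries and 89.9, 87.2, 90.9 and 92.1 in the H2A libraries. Between the pair a region of 2776 bp (chr2:172094838-172097613) was present in all 8 libraries with a median fold of only 2.45 and a median percentile of 51.7, so it was broad and weak. The pair with 10 kb on each side held 6541, 6200, 5720 and 6156 bp under peaks in the E92K libraries and 5519, 6375, 5956 and 6650 bp in the H2A libraries. The means were 6154 ± 337 bp and 6125 ± 495 bp (SD, n = 4 each), and the groups overlapped.

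DLX5 and DLX6, which pattern the lower jaw and limb, shared the strongest region between paired genes. It measured 1658 bp (chr7:97015671-97017328), lay 8.3 kb from the DLX5 start inside the pair, and had a median fold of 7.72 and a median percentile of 83.1 in 8 of 8 libraries. The DLX5 promoter itself ranked lower. Its percentile was 71.7, 76.8, 68.5 and 76.5 in the E92K libraries and 71.6, 75.5, 74.6 and 75.3 in the H2A libraries. DLX6 reached 83.5, 85.3, 90.6 and 86.6 in the E92K libraries and 85.2, 86.9, 87.9 and 89.0 in the H2A libraries. A further 655 bp region lay 2.8 kb upstream of DLX5 in all 8 libraries. Covered length was 4546 ± 126 bp in the E92K libraries and 4611 ± 203 bp in the H2A libraries (SD, n = 4 each).

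DLX3, a factor of epidermis, hair and tooth, had the narrowest of the promoter peaks open in all 8 libraries, with a median of 502 bp. Its widths were 636, 511, 487 and 494 bp in the E92K libraries and 475, 303, 532 and 664 bp in the H2A libraries. Its percentile was 67.3, 62.4, 74.0 and 61.9 in the E92K libraries and 70.4, 66.1, 73.3 and 75.6 in the H2A libraries. DLX4, its partner, had a peak at the percentile 75.6, 82.4, 79.6 and 79.3 in the E92K libraries and 82.8, 78.7, 86.6 and 81.6 in the H2A libraries. A region 1.5 kb upstream of DLX3 (chr17:49996470-49996979) was present in 2 of 4 E92K and 4 of 4 H2A libraries, and one 3.1 kb upstream in 4 of 4 E92K and 3 of 4 H2A libraries. The pair held 3262 ± 74 bp under peaks in the E92K libraries and 3398 ± 207 bp in the H2A libraries (SD, n = 4 each), and the groups overlapped.

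**Figure D3:**
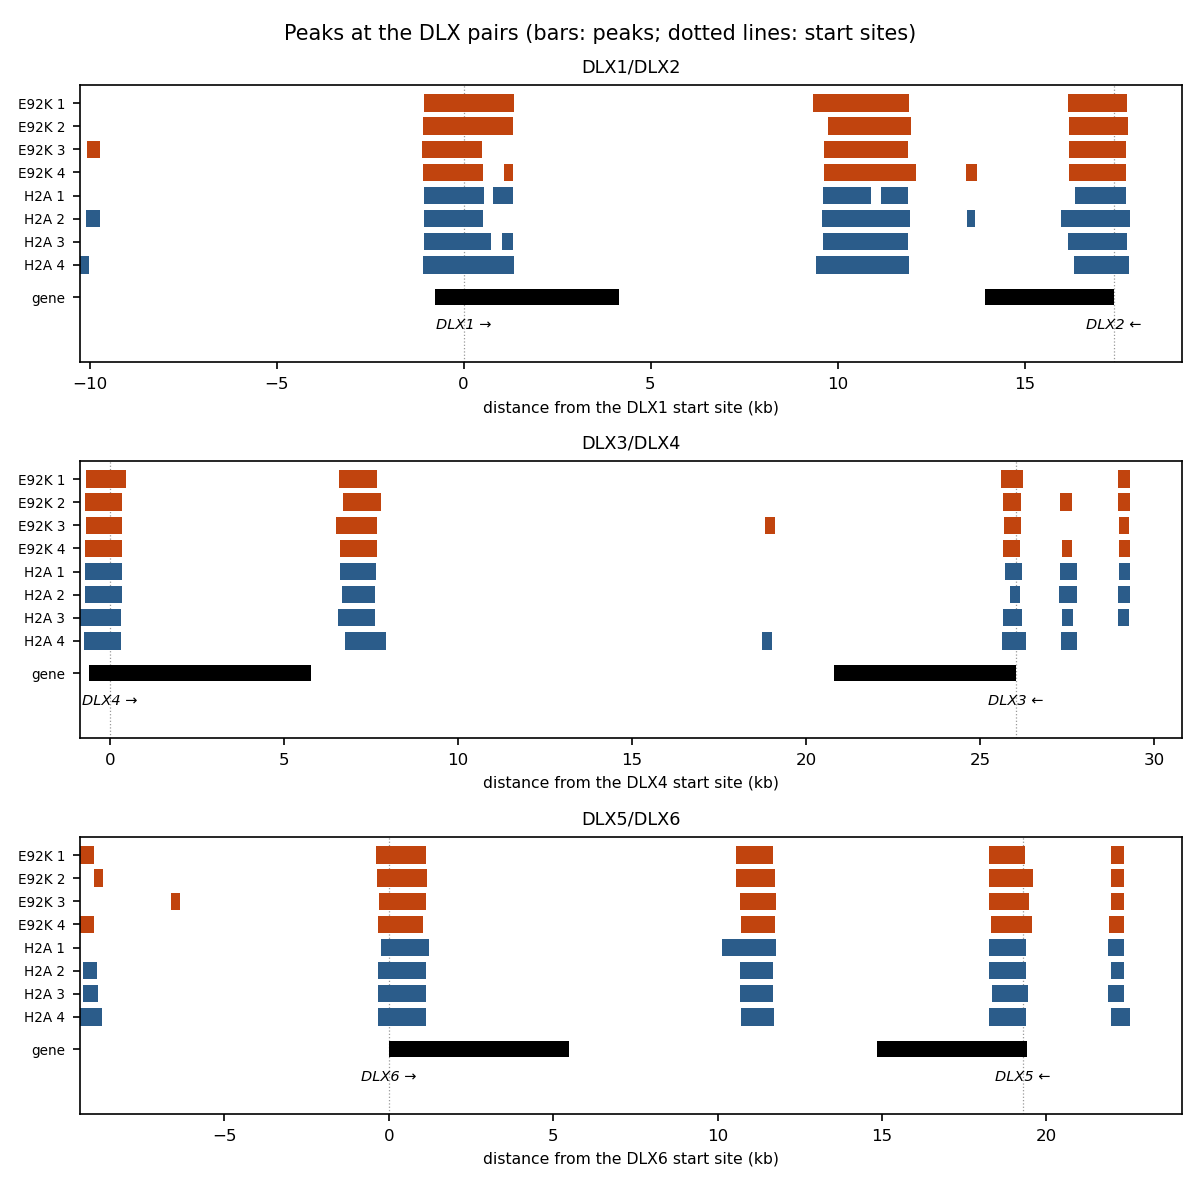
Peaks of each library (coloured bars, E92K in the upper 4 rows and H2A in the lower 4) at the DLX pairs, on the distance in kb from the start of the leftmost gene. Black bars are genes, arrows give the direction of transcription and dotted lines the canonical TSS; both starts of each pair lie under a peak in every library, and a further peak present in all 8 libraries lies between the starts of each pair.

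The Iroquois genes encode TALE-type homeodomain factors of heart, neural tube, limb and fat, and stand in 2 clusters of 3 genes. The clusters differed. In the cluster of IRX3, IRX5 and IRX6 on chromosome 16 all 3 promoters were open in all 8 libraries, and its 1067.5 kb held 24 regions, 8 of them in every library. In the cluster of IRX4, IRX2 and IRX1 on chromosome 5, which is longer at 1744.0 kb, only IRX4 was open, and 13 regions were present, 3 of them in every library. Length under peaks per kb was 10.4 bp in the E92K and 10.1 bp in the H2A libraries for the first cluster, and 1.8 and 2.1 bp for the second. These lengths are means of 4 libraries, and gene content and mappability were not compared between the clusters.

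IRX4, a gene of the ventricular heart muscle, had a modest promoter peak. Its percentile was 62.9, 59.3, 63.4 and 55.5 in the E92K libraries and 51.8, 62.1, 68.0 and 62.3 in the H2A libraries. The fold was 5.82, 5.00, 5.69 and 5.09 in the E92K libraries and 4.33, 5.38, 6.07 and 5.43 in the H2A libraries. The groups overlapped in both. Upstream of IRX4, towards IRX2, a scatter of regions followed. One of 1029 bp (chr5:2038321-2039349) was present in all 8 libraries at a median fold of 9.34, another in 5, and each of the others in 1. Then no library had a peak over 1099.1 kb, from position 2225377 to 3324483, a stretch that includes the whole of IRX2. The first region after it (chr5:3324483-3325366), in all 8 libraries, was the nearest one to IRX1 in any library and lay 270.5 kb from its start. The nearest region to IRX2 in any library was 526.3 kb away and was called in 1 library, and the nearest in all 8 was 572.8 kb away. IRX1 and IRX2 were the only genes of the 41 with 0 bp under peaks over the gene and 10 kb on each side in every library.

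IRX3 and IRX5, which act in limb, hypothalamus and fat, and IRX6, a gene of the retina, were open throughout. IRX3 had percentiles of 89.3, 87.4, 87.6 and 85.7 in the E92K libraries and 87.5, 85.9, 88.2 and 87.4 in the H2A libraries. IRX6 had 80.8, 78.3, 77.8 and 76.7 in the E92K libraries and 81.8, 81.3, 76.9 and 80.1 in the H2A libraries. IRX5 had 72.9, 78.2, 68.6 and 70.7 in the E92K libraries and 72.4, 70.3, 71.8 and 78.2 in the H2A libraries. The stronger peak at IRX5 was not on its own start. A region centred 1.7 kb upstream (chr16:54928506-54929815) had a median percentile of 95.0 and a median fold of 6.66, against 72.1 and 3.47 at the IRX5 promoter. Both regions touch the promoters of CRNDE and another long noncoding RNA. The cluster held 11133 ± 1066 bp under peaks in the E92K libraries and 10834 ± 401 bp in the H2A libraries, and the other cluster 3136 ± 318 bp and 3626 ± 395 bp (SD, n = 4 each). Both comparisons overlapped between the groups.

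**Figure D4:**
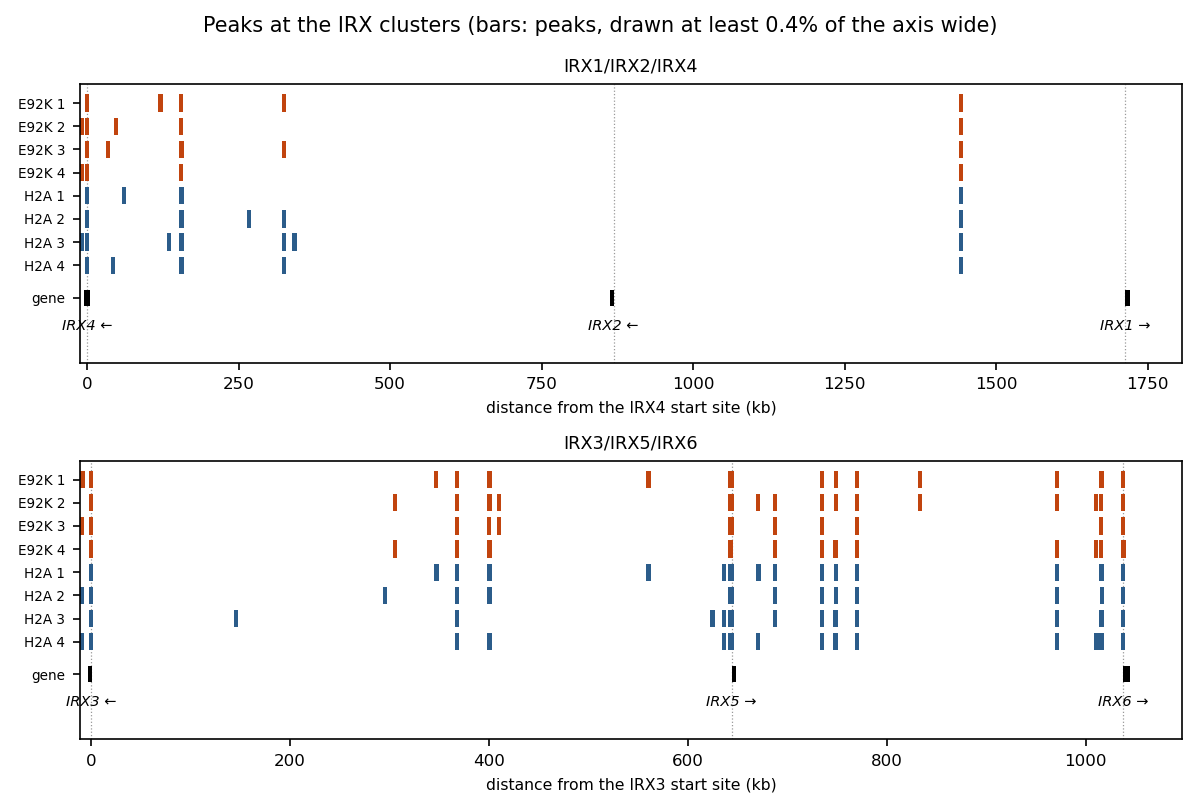
Peaks of each library (bars, E92K in the upper 4 rows and H2A in the lower 4) over the IRX clusters on the distance in kb from the start of the first gene, with bars widened for visibility. No bar stands at IRX2 or IRX1 in any row and a gap of 1099.1 kb surrounds IRX2, while IRX3, IRX5 and IRX6 each have a bar in all 8 rows.

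The LIM homeobox (LHX) genes pair a homeodomain with 2 zinc-binding LIM domains and act in kidney, brain, pituitary and gonad. LHX6, a factor of cortical interneurons, had 2 promoter regions in all 8 libraries. The higher ranked (chr9:122213632-122214571) lay at an internal start and not at the canonical one. Its percentile was 95.6, 96.4, 96.5 and 95.6 in the E92K libraries and 95.4, 97.1, 96.9 and 95.5 in the H2A libraries, with folds of 11.67, 11.63, 12.29 and 12.27 in the E92K libraries and 11.86, 12.81, 12.70 and 11.73 in the H2A libraries. The median width of this peak was only 832 bp. The region at the canonical start (chr9:122227356-122229080) was wider, at 1725 bp, and weaker, with a median fold of 4.43 and a median percentile of 48.8 (range 27.5 to 58.3). LHX4, a pituitary factor, and LHX9, a gonad factor, had wide peaks of lower rank. LHX4 widths were 2478, 2574, 2474 and 2524 bp in the E92K libraries and 2745, 2549, 2551 and 2571 bp in the H2A libraries, with a median percentile of 84.0. LHX9 widths were 2240, 2514, 2250 and 2440 bp in the E92K libraries and 2262, 2279, 2255 and 2408 bp in the H2A libraries, with a median percentile of 84.6.

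LHX1, a gene of the developing kidney and head organizer, was open in all 8 libraries, but its annotated TSS lay outside the peak in each. Its summit stood at a median of 710 bp upstream, and the same region touched the promoter of LHX1-DT, a divergent noncoding RNA. The same held at LHX2, a factor of eye and forebrain, with a median summit 219 bp upstream of a TSS that was under no peak in any library. LHX8, which acts with LHX6 in basal forebrain and tooth, had a median percentile of 71.0 and the lowest CpG count of the 41 genes, 68.

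LHX3, which specifies pituitary and motor neurons, was the gene with an uneven call. Its promoter had a peak in 0, 0, 1 and 1 of the E92K replicates 1 to 4 and in every H2A replicate. Where present the fold was 4.46 and 3.92 in E92K replicates 3 and 4 and 3.77, 4.06, 3.40 and 3.62 in the H2A replicates. The percentiles were 43.8 and 30.5 in those E92K libraries and 35.4, 36.1, 28.8 and 33.2 in the H2A libraries, the lowest median of any called promoter among the 41. Fisher's exact test on 2 of 4 against 4 of 4 libraries gave a two-sided p of 0.4286. With 4 libraries per group the smallest two-sided p of this test is 0.0286. Only 0.0306% of the 19609 promoters had it, so none could reach an adjusted p of 0.05, and none did. A promoter peak in 2 or more fewer E92K than H2A libraries was found at 0.841% of all protein-coding genes. The E92K libraries without the peak, replicates 1 and 2, had backgrounds of 2.41 and 2.68 fragments, above the 2.23 and 2.26 of the replicates with it. The summits stood 255 to 335 bp upstream of the most downstream of 3 annotated starts, and no peak in any library came within 1000 bp of the canonical start. The 150 bases around the median summit in GRCh38 (chr9:136201911-136202060, plus strand, CpG in capitals) show where the call fell.
LHX3 region: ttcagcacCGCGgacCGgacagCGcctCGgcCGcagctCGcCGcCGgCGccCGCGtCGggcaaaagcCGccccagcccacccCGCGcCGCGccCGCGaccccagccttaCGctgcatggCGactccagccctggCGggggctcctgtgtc

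LHX5, a forebrain factor, had no promoter peak. Its nearest region lay 8.1 kb upstream and was present in 2 of 4 E92K and 4 of 4 H2A libraries. A region of 987 bp at the end of the gene body (chr12:113461833-113462819), 9.1 kb from the start, was present in all 8 libraries at a median fold of 7.17.

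EMX1 and EMX2, factors of the cerebral cortex of which EMX2 is also needed for the urogenital tract, had 2 of the 5 widest promoter peaks. EMX2 widths were 2678, 2664, 2636 and 2603 bp in the E92K libraries and 2739, 1616, 1509 and 2763 bp in the H2A libraries. The 2 narrower H2A values came from libraries in which the caller drew 2 promoter peaks, so the groups overlapped. EMX1 widths were 1935, 1778, 2629 and 2189 bp in the E92K libraries and 2900, 2401, 2325 and 2528 bp in the H2A libraries. OTX1 and OTX2, the orthodenticle genes of forebrain and midbrain, differed from each other. OTX1 was open in all 8 libraries at a median percentile of 88.3, while OTX2, also a factor of retina and epiblast, had no promoter peak at any of its annotated starts. A 1157 bp region 1.6 kb from the nearest OTX2 start (chr14:56807467-56808623) was present in all 8 libraries at a median fold of 4.57 and a median percentile of 32.7.

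MSX1 and MSX2, targets of BMP signalling in skull and tooth, were open at median percentiles of 84.2 and 88.1. MSX2 percentiles were 88.2 to 92.5 in the E92K libraries and 86.6 to 88.0 in the H2A libraries. These groups did not overlap. EN1 and EN2, the engrailed genes of the midbrain-hindbrain boundary, were open at 74.0 and 88.0. EN1 had a stronger region 8.1 kb upstream (chr2:118855290-118856214) in all 8 libraries, with a median fold of 11.75 and a median percentile of 89.5. EN2 had 286 CpG around its start, the second highest of the 41, and 2 separate promoter regions. The stronger was centred 856 bp upstream at a median fold of 5.54 and the weaker 746 bp downstream at 2.68. The start itself was under a peak in 5 of 8 libraries, E92K replicate 1 and every H2A replicate. How many of all genes show such a split at the start was not counted.

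Of the NKX genes, NKX6-1, a factor of motor neurons and pancreatic beta cells, ranked among the 3 highest of the 41. Its percentile was 97.8, 96.8, 95.1 and 96.8 in the E92K libraries and 96.2, 92.9, 94.8 and 95.8 in the H2A libraries. NKX6-2, its close relative in the ventral neural tube, had no promoter peak, and a region 1.1 kb upstream (chr10:132787257-132788666) was present in all 8 libraries at a median fold of 3.97. NKX2-5, the cardiac factor, was open at a median percentile of 90.3. NKX2-2, a factor of the ventral neural tube and pancreas, had a weak peak with a percentile of 12.6, 45.2, 44.3 and 40.1 in the E92K libraries and 49.7, 51.5, 35.3 and 38.7 in the H2A libraries. Its summit stood at a median of 757 bp upstream of its GENCODE start, which was under a peak in 1 library. The RefSeq sequence of NKX2-2 (chr20:21522640-21522939) lies farther upstream. A region touching it (chr20:21520973-21522900) was present in all 8 libraries, at a median fold of 5.33 and a median percentile of 62.6.

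NKX2-1, the thyroid, lung and ventral forebrain factor, and PAX9, a factor of tooth and pharyngeal pouch, lie on chromosome 14 with starts 141.6 kb apart. Between them lies NKX2-8, counted here among the other homeobox genes. Its promoter had a peak in all 8 libraries and is part of the span compared below. PAX9 had one of the 5 highest ranked promoter peaks. Its percentile was 94.5, 95.7, 97.1 and 95.5 in the E92K libraries and 94.0, 94.4, 92.9 and 96.0 in the H2A libraries. NKX2-1 was lower, with 73.4, 75.9, 73.2 and 72.9 in the E92K libraries and 74.7, 79.6, 71.7 and 78.3 in the H2A libraries. Over the 183.0 kb from 10 kb before NKX2-1 to 10 kb after PAX9, length under peaks was 7262, 7298, 7271 and 6647 bp in the E92K libraries and 7694, 7620, 7702 and 7422 bp in the H2A libraries. All E92K libraries were below all H2A libraries here, the only one of 6 clusters where the groups did not overlap. The means were 7120 ± 315 bp and 7610 ± 130 bp (SD, n = 4 each). Among single genes, 3.45% of 17259 had all E92K libraries below all H2A libraries and 1.01% all above. Those shares are for windows of 1 gene with 10 kb on each side. The share among spans as long as this cluster was not counted. Neither gene's own window separated the groups. Regions 32.6 and 35.8 kb upstream of NKX2-1 were each present in 2 of 4 E92K and 4 of 4 H2A libraries. The background was also lower in 3 of the 4 E92K libraries than in any H2A library, and the part of depth in this difference was not tested.

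SIX3 and SIX6, factors of the eye and anterior forebrain, had no promoter peak. SIX3 nevertheless had 4 regions present in all 8 libraries within its window, the nearest 6.0 kb away and the strongest 14.1 kb downstream at a median fold of 7.20. SIX6 had 1 such region, 5.3 kb away, with a median fold of 8.29. PAX6, the eye and pancreas factor, had one of the widest and highest ranked peaks. Its widths were 2461, 2449, 2189 and 2717 bp in the E92K libraries and 2541, 1989, 2675 and 2628 bp in the H2A libraries. Its percentile was 96.5, 92.6, 94.4 and 90.3 in the E92K libraries and 93.7, 92.8, 93.8 and 93.6 in the H2A libraries, and its summit lay at a median of 4 bp from a start; the noncoding RNA PAUPAR starts 8 bp from an annotated PAX6 start. PAX3, of neural crest and muscle, was open at a median percentile of 87.4, and PAX7, of muscle satellite cells, at 37.7. The PAX7 percentiles were 28.8, 27.9, 46.8 and 40.1 in the E92K libraries and 35.3, 20.1, 42.1 and 41.4 in the H2A libraries. POU4F1, a sensory neuron factor, was open at 93.4 and POU3F2, a neuronal factor, at 85.8.

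A noncoding RNA started within 1 kb of 11 of the 41 genes (26.8%), against 17.2% of all protein-coding genes. It did so at 8 of the 33 open genes (24.2%, against 21.7%) and at 3 of the 7 genes without a promoter peak, IRX2, LHX5 and SIX3 (42.9%, against 6.7%). These partner starts lie inside the same window, so they too had no peak there.

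When the 8 lists were merged, 116 regions touched the 41 genes or the 10 kb on either side. Of these 74 (63.8%) were present in all 8 libraries and 11 (9.5%) in 1 library, against 38.1% and 26.5% of all 96872 regions. Promoter regions numbered 38, with 36 in every library. Upstream regions were in every library in 16 of 30 cases (53.3%), downstream regions in 18 of 32 (56.2%) and gene body regions in 6 of 19 (31.6%), where a region between 2 genes is counted for each. No region separated the groups completely (4 of 4 libraries against 0 of 4), as 0.323% of all regions did. At least 3 more libraries of one group than of the other had a peak at 2 regions, against 2.53% of all regions, and both were called in 0 E92K and 3 H2A libraries. One lay 7.6 kb upstream of IRX5 (chr16:54923127-54923472) at a median fold of 2.91 and the other 1.1 kb downstream of the POU3F2 start (chr6:98835405-98835946) at a median fold of 1.71, so both were weak.

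The number of open promoters barely differed between the groups. It was 33, 33, 34 and 34 in the E92K libraries and 34 in each H2A library, the difference being LHX3. No promoter of the 41 separated the groups completely, which 0.0306% of all protein-coding promoters did. Among the other homeobox genes, HOX genes and patterning signal genes none did either, and among the markers MYOG, a regulator of muscle differentiation, was open in 0 of 4 E92K and 4 of 4 H2A libraries.

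Length under peaks over each gene and 10 kb on either side was tested with limma on log2(bp + 100). Of the 41 genes, 39 entered the test, and IRX1 and IRX2 had nothing to test. None of the 39 was called at an adjusted p of 0.05, against 0.0116% of the 17259 genes tested. One gene, LHX5, had an unadjusted p under 0.05, against 7.69% of all genes. Its covered length was 1091, 1062, 780 and 792 bp in the E92K libraries and 1282, 1282, 1120 and 1130 bp in the H2A libraries. These groups did not overlap, which 4.46% of all genes show, and LHX5 was the only one of the 39 in which they did not. The log2 difference was −0.35 ± 0.13 (SE), with an adjusted p of 0.575 by limma. The exact permutation test over 70 assignments, two-sided, gave p = 0.0286 before adjustment, its smallest possible value, and 0.64 after.

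The other large differences all had overlapping groups. LHX3 held 0, 0, 606 and 438 bp in the E92K libraries and 407, 312, 731 and 443 bp in the H2A libraries, a log2 difference of −1.16 ± 0.69 (SE, limma adjusted p = 0.736, exact p = 0.2857). With 2 libraries at 0 bp its size follows the pseudocount, being −2.67 with 10 bp and −0.25 with 1000 bp, and it was 0.00 with a flank of 50 kb. IRX5 held 2349, 2103, 1673 and 1536 bp in the E92K libraries and 2121, 1824, 2722 and 2572 bp in the H2A libraries, a log2 difference of −0.26 ± 0.16 (SE, limma adjusted p = 0.75). In the other direction OTX1 held 3710, 3550, 3863 and 2533 bp in the E92K libraries and 2821, 2743, 2495 and 3542 bp in the H2A libraries, a log2 difference of 0.22 ± 0.15 (SE, limma adjusted p = 0.773). None of these exceeded the spread between replicates. PAX7 differed by 0.18 ± 0.27 (SE, limma adjusted p = 0.915) and LHX2 by 0.13 ± 0.20 (SE, limma adjusted p = 0.92).

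Over the 39 genes the log2 difference was below 0 in 25 (64.1%), against 62.5% of all genes, and its median was −0.055 against −0.039. With each library centred on its median over all genes it was below 0 in 21 of 39, with medians of −0.008 and 0.008. Total length under peaks in all windows together was 97.18, 101.56, 94.23 and 89.69 kb in the E92K libraries and 96.79, 95.15, 98.80 and 104.42 kb in the H2A libraries. The groups overlapped, at 95.66 ± 4.99 kb and 98.79 ± 4.04 kb (SD, n = 4 each).

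**Figure D5:**
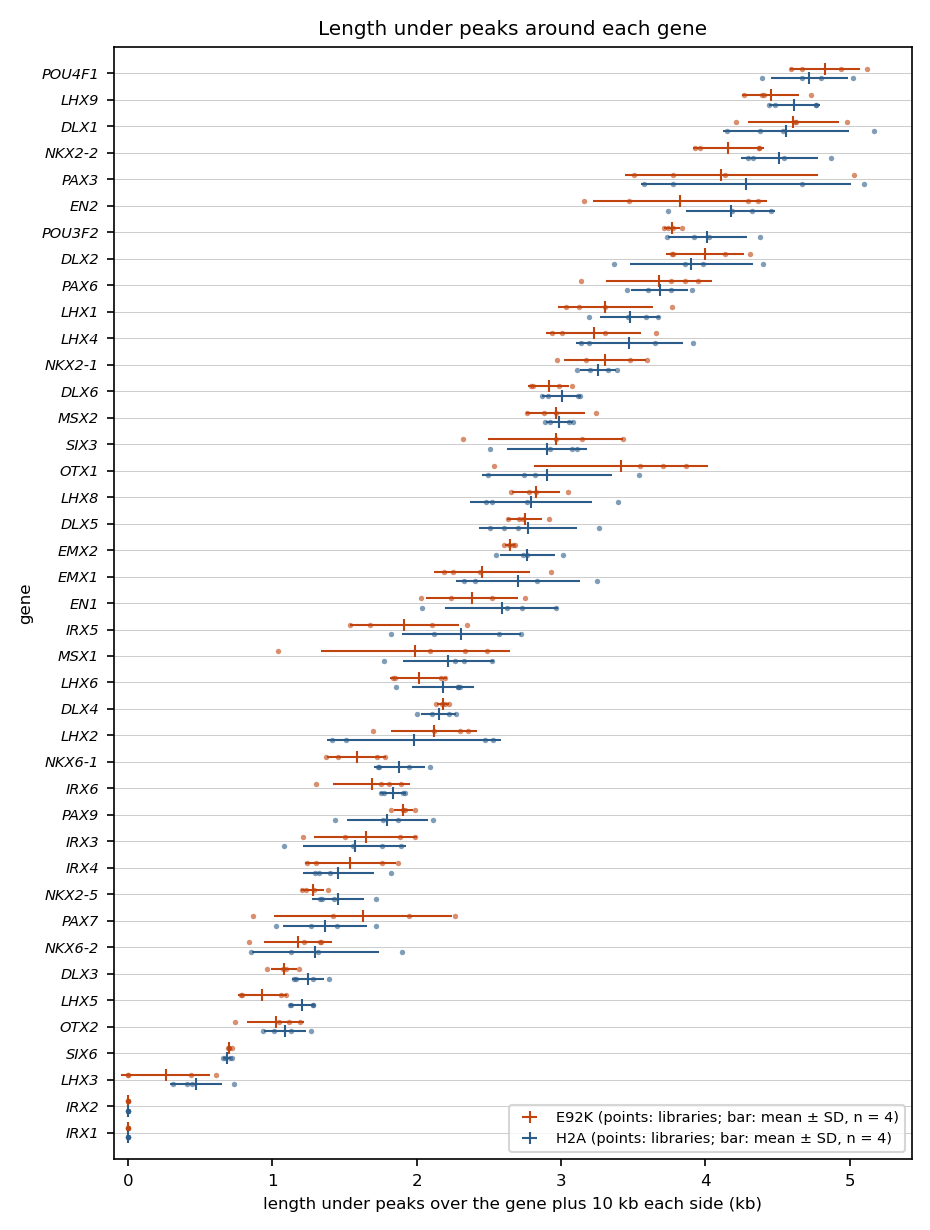
Length under peaks (kb) over each gene and 10 kb on either side, E92K above H2A in each row, with points for libraries and bars for mean ± SD (n = 4). LHX5 is the only gene of the 41 whose E92K and H2A points do not overlap. At IRX1 and IRX2 all points coincide at 0.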

How the data were processed

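ATAC-seq peaks of 8 HEK293T libraries were analysed, 4 E92K and 4 H2A by sample title. Reads were aligned to hg38, per the labels. Aligner, peak caller, Tn5 shift and duplicate handling were not given in the sources used here, and all can change widths and significance. Each deposited list was called per library and holds, per summit, a score (10 times the −log10 q), the fold over local background as a ratio, and the −log10 of the p-value and q-value. The smallest deposited −log10 q was 2.0. These are the authors' values, used only within a list. Further summits of an interval were joined to it and the strongest kept.

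A promoter peak overlaps the 1000 bp on either side of a basic protein-coding TSS of GENCODE version 44 by at least 1 bp. Covered length used limma 3.58.1 (R 4.3.3) with a trended prior on log2(bp + 100), for genes with a peak in at least 4 libraries, and presence used Fisher's exact test (scipy 1.17.1), both with Benjamini-Hochberg adjustment over all genes. The limma step was tested on simulated data. Members and lists were chosen with earlier results of these data known. Named with values per library are genes open in some libraries, the DLX, IRX and NKX2-1/PAX9 clusters, the 5 widest and 5 highest ranked promoter peaks and the 3 largest differences each way; weak peaks such as NKX2-2 and PAX7, and further regions, were picked after their values were seen. Alternatives covered promoter reach, start choice, flank, pseudocount, filters, peak threshold, equal list lengths, overlap, centring, exact tests, a replicate block and leaving out libraries. Read totals were not analysed here.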

Additional observations from a re-analysis of the deposited data

Results flagged for a closer look

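In 212 groups of 4 libraries, 11 held a value set apart from the other 3 by a gap larger than Dixon's critical share of the range. Chance alone flags about 1 in 20 groups. At IRX6 the promoter peak of E92K replicate 4 was 594 bp wide, against 1749 to 1893 bp in the other E92K libraries, where 2 promoter peaks were drawn in that library and 1 in the others. At LHX1 the peak of E92K replicate 1 was 2660 bp wide, against 1538 to 1634 bp. The fold of the NKX2-2 promoter peak in E92K replicate 1 was 3.29, against 4.77 to 4.89.

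The remaining values lay closer to the others of their group. Widths that stood apart were 636 bp at DLX3 in E92K replicate 1 (others 487 to 511), 1170 bp at DLX4 in H2A replicate 3 (1057 to 1076), 2745 bp at LHX4 in H2A replicate 1 (2549 to 2571) and 2408 bp at LHX9 in H2A replicate 4 (2255 to 2279). Folds were 3.85 at IRX5 in H2A replicate 4 (3.37 to 3.44), 7.06 at IRX6 in H2A replicate 3 (8.05 to 8.22) and 5.28 at POU4F1 in H2A replicate 3 (5.52 to 5.54). Length under peaks around LHX6 was 1859 bp in H2A replicate 2, against 2284 to 2303 bp.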

How the results depend on the processing

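The 33 genes open in every library and the 7 open in none kept their counts within 1.5 times under all alternatives run, and no gene of the 41 was called for covered length under any. With a reach of 500 bp, 2 genes were open in some libraries, EN2 joining LHX3. With the canonical start alone there were 0, and the mean difference in open genes became 0.0 in place of −0.5. At a −log10 q of 5 or more there were 3, with NKX2-2 in 3 of 4 E92K and PAX7 in 3 of 4 H2A libraries. With a reach of 2000 bp OTX2 and NKX6-2 were open in all 8 libraries. Leaving out 1 library left 9 to 20 promoters of all genes that separate the groups, against 6, since 3 libraries then suffice, and moved the difference in open genes between −0.67 and −0.33 and the summed length difference between −4.96 and −1.14 kb, against −3.06.

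Genes called among all tested, 2 as reported, were 17 with no flank, 0 with 50 kb, 6 at the stricter q, 6 with no filter, 0 with a pseudocount of 10 or 1000 bp, 0 by the exact permutation test (770 at an unadjusted p under 0.05) and 0 to 0 without any 1 library. The sign turned for LHX2 with a 50 kb flank (−0.09) and without H2A replicate 1 (−0.01), and for PAX7 at the stricter q (−0.01). Without 1 library the log2 difference ranged from −1.66 to −0.72 for LHX3, −0.42 to −0.28 for LHX5, −0.36 to −0.17 for IRX5, −0.01 to 0.26 for LHX2, 0.00 to 0.43 for PAX7 and 0.16 to 0.35 for OTX1. Same-numbered libraries did not deviate together in covered length (correlations of −0.047, −0.048, 0.018 and −0.056). That cannot tell whether equal numbers mark a shared culture or preparation, which the labels do not say. With a replicate block 0 genes were called by limma (1112 at an unadjusted p under 0.05). The cause of these shifts was not tested. Peak lists carry no read counts, so whether a missing weak peak reflects depth was not tested.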
